A study of Drosophila melanogaster with 36 samples.

Results

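The binding regions of the Hox proteins Deformed (Dfd) and Ultrabithorax (Ubx) were compared in cells that also expressed the cofactor Homothorax (Hth). The members were the 9865 regions listed for the Dfd+Hth line and the 4885 listed for the Ubx+Hth line at q 1e-2, 14750 of the 112270 regions of 12 stable lines. Any regions outside 2L, 2R, 3L, 3R, 4 and X were not used or counted. A region was shared where it overlapped a region of the other line by at least 1 bp, and private where it did not. The cells were Kc167, a Drosophila line with hemocyte character that expresses Extradenticle (Exd) but lacks Hth. Each line carried its coding sequences under the copper-inducible metallothionein promoter, with Hth joined to the eGFP-tagged Hox protein by a self-cleaving 2A peptide. Copper induction took 22 h at 2.66 mM CuSO4 in the Dfd+Hth line and 18 h at 1 mM in the Ubx+Hth line, so the Hox protein and the induction cannot be told apart. Cells of both lines were sorted within a common range of GFP fluorescence, and each line gave 2 anti-GFP ChIP libraries and 1 input library. The authors kept, as 1 list per line, the joined regions that both replicates had given. The lists therefore give no spread between replicates for the shares, and no p-value is reported. The 95% exact (Clopper-Pearson) intervals below cover counting error only, and the main values also come with their range over the 5 large arms, X included.

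The other lines used here for reference expressed Dfd alone (2 mM CuSO4, 24 h), Ubx alone (1 mM, 18 h), eGFP-tagged Hth alone (1 mM, 18 h), Dfd+Hth+Gcm (3.7 mM, 22 h) and Ubx+Hth+Gcm (2.5 mM, 24 h), where Gcm is a transcription factor of glia and plasmatocytes. Dfd+Gcm (3.2 mM, 24 h), Ubx+Gcm (2.5 mM, 24 h), Abd-B (0.5 mM, 24 h), Abd-B+Hth (2.5 mM, 24 h) and Gcm alone (2.5 mM, 24 h) made up the rest. At q 1e-2 there were 10374 regions for Dfd, 5278 for Ubx, 8998 for Hth, 8790 for Dfd+Hth+Gcm and 8365 for Ubx+Hth+Gcm. Dfd+Gcm had 8886, Ubx+Gcm 8827, Abd-B 13511, Abd-B+Hth 13741 and Gcm 10750. A longer list meets more regions, so shares met by different lines are not on an equal footing. The lists hold no expression values, so the hemocyte character of the cells was not checked here, and they hold no read depth.

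Hox proteins are homeodomain transcription factors that give body segments their identity. Dfd acts in the head and Ubx in the posterior thorax and anterior abdomen. As monomers they bind short AT-rich sequences, where anterior and central Hox proteins favour a TAAT core and Abd-B, the most posterior, favours TTAT. Hth carries Exd into the nucleus, and Exd binds DNA side by side with a Hox protein on octamers of the form TGATNNAT. Binding experiments in vitro have sorted these octamers into a class 1 (TGATTGAT), a class 2 (TGATTAAT) preferred by Dfd and Scr with Exd, and a class 3 (TGATTTAT) preferred by the more posterior Hox proteins, Ubx included.

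The sequences below show the octamers on which the private regions of the lines differed most, each in a window of 30 bases printed 5′ to 3′ from the RefSeq copy of the Release 6 (dm6) genome, with the octamer in capitals. The windows on top came from regions private to Dfd+Hth and show class 2 octamers at Hox, cofactor and hemocyte genes, followed by the 8-mer that separated the private sets most (ATTAATTA). The windows after them came from regions private to Ubx+Hth and show class 3 octamers, followed by the 8-mer most in excess there (ATAAATAA). The last window is a class 3 octamer from a Dfd+Hth private region of ct, a gene that also holds a Ubx+Hth private region.
Dfd+Hth private, Dfd intron, class 2, chr3R:6800481-6800510, plus strand: ccatttgatttTGATTAATtattcagtccc
Dfd+Hth private, Scr intron, class 2, chr3R:6830371-6830400, minus strand: gaccgcatactTGATTAATtttctttttcc
Dfd+Hth private, hth intron, class 2, chr3R:10566462-10566491, minus strand: gacttagacgcTGATTAATatggaattatt
Dfd+Hth private, exd intron, class 2, chrX:15994613-15994642, minus strand: atttgcattgtTGATTAATgtgccctacac
Dfd+Hth private, lz intron, class 2, chrX:9298229-9298258, plus strand: ttaacattaagTGATTAATgaattgttgcc
Dfd+Hth private, Pvr intron, class 2, chr2L:8236003-8236032, plus strand: atcttgatactTGATTAATtgagcagacat
Dfd+Hth private, intergenic near CG3473, class 2, chr2L:14566845-14566874, plus strand: tgtgtgtcccaTGATTAATgagcttattat
Dfd+Hth private, intergenic, nearest gene robo2, ATTAATTA, chr2L:1424390-1424419, plus strand: ctatgggcataATTAATTAcatatttcaat
Ubx+Hth private, cv-c intron, class 3, chr3R:14465069-14465098, minus strand: ggtgtcattagTGATTTATggtgggattgc
Ubx+Hth private, eIF5B intron, class 3, chr3L:3434152-3434181, plus strand: atctaaaaataTGATTTATatatttcgtgc
Ubx+Hth private, Jupiter intron, class 3, chr3R:11614660-11614689, minus strand: tgctcttggcaTGATTTATtttgacatgca
Ubx+Hth private, intergenic by RpS3, class 3, chr3R:23360426-23360455, plus strand: cagttgtctgcTGATTTATgaggctgtcct
Ubx+Hth private, ct intron, class 3, chrX:7661396-7661425, plus strand: gctgtatttctTGATTTATtttttttttat
Ubx+Hth private, cv-c intron, ATAAATAA, chr3R:14465478-14465507, plus strand: taattacgctcATAAATAAtgagaaacaaa
Dfd+Hth private, ct intron, class 3, chrX:7652728-7652757, minus strand: gaaatgaaattTGATTTATcgacaggcaaa

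Most Dfd+Hth regions had no Ubx+Hth counterpart, while most Ubx+Hth regions had a Dfd+Hth counterpart. Of the 9865 Dfd+Hth regions, 6176 (62.6%, interval 61.6 to 63.6) were private, and of the 4885 Ubx+Hth regions, 938 (19.2%, 18.1 to 20.3). The private share was 60.7 to 64.9% for Dfd+Hth and 16.6 to 22.0% for Ubx+Hth across the 5 arms, and these ranges did not overlap. The shared regions numbered 3689 in the Dfd+Hth list and 3947 in the Ubx+Hth list. The numbers differ because 273 Dfd+Hth regions each spanned 2 Ubx+Hth regions, while 83 Ubx+Hth regions each joined 2 Dfd+Hth regions. In 3139 places 1 region of each line met.

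**Figure D1:**
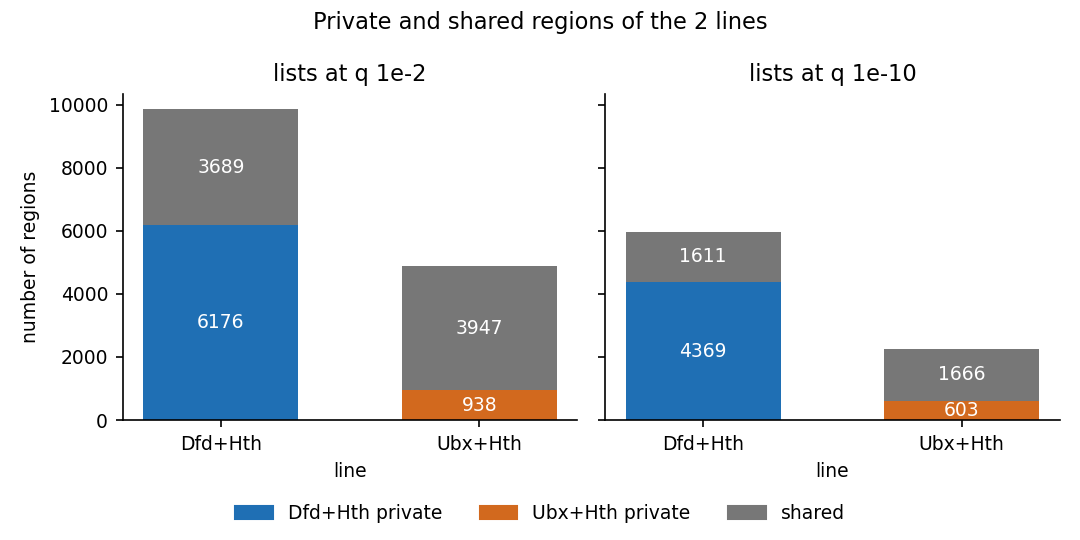
Number of private and shared regions (vertical axis) of the Dfd+Hth and the Ubx+Hth line, with both lists at q 1e-2 and with both at q 1e-10. At q 1e-2 the private part was 6176 of 9865 Dfd+Hth regions and 938 of 4885 Ubx+Hth regions.

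The size of the private shares followed the lists that were set against each other. With both lists at q 1e-10, which left 5980 Dfd+Hth and 2269 Ubx+Hth regions, 4369 Dfd+Hth regions (73.1%) and 603 Ubx+Hth regions (26.6%) were private. Setting each q 1e-10 list against the longer q 1e-2 list of the other line left 2967 private Dfd+Hth regions (49.6%) and 302 private Ubx+Hth regions (13.3%). They are called the strict private regions here. A strict private region can lie within a wider q 1e-2 region that counted as shared. The gene Ser, for example, had 0 private, 1 shared and 1 strict private Dfd+Hth region. The Dfd+Hth list was also the longer one. When it was cut to its widest 4885 regions, so that both lists had the same length, 46.0% of Dfd+Hth and 39.4% of Ubx+Hth regions were private. With every region reduced to 400 bp on its centre, the shares were 67.4% and 33.6%. The direction was kept in each of these comparisons, but the gap between the lines was far smaller with the Dfd+Hth list cut to its widest regions. Wide regions overlap others more easily, so that cut changed list length and region width together.

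Private regions were narrower than shared ones in both lists. The overlap rule itself favours this, since a wider region meets the other list more easily. The median width was 523 bp for Dfd+Hth private, 446 bp for Ubx+Hth private and 885 bp for shared regions on the Dfd+Hth side (622 bp on the Ubx+Hth side). The lines also differed in where the private regions lay. The centre was within 500 bp of an annotated transcript start in 37.4% of Dfd+Hth private regions (36.2 to 38.6), 25.3% of Ubx+Hth private regions (22.5 to 28.2) and 39.3% of shared regions (37.7 to 40.8). Introns held the centre of 47.3% of Dfd+Hth private, 60.3% of Ubx+Hth private and 56.8% of shared regions, and intergenic sequence held 29.6%, 21.3% and 23.1% in the same order. The median GC content of the central 200 bp was 39.5% in Dfd+Hth private, 42.8% in Ubx+Hth private and 41.5% in shared regions, so the sequence counts that follow were made on windows that differed in base composition.

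The octamers of Exd-Hox pairs divided the private sets by class. Each motif was searched for on both strands in the central 200 bp of a region, in windows 1000 bp to either side, and in all 668175 non-overlapping 200 bp tiles of the genome. The class 2 octamer TGATTAAT was found in 7.72% of Dfd+Hth private regions (477 of 6176, 7.07 to 8.42), 1.39% of Ubx+Hth private regions (13 of 938, 0.740 to 2.36) and 3.71% of shared regions (137 of 3689, 3.13 to 4.38). The genome tiles held it in 1.36%, so the Ubx+Hth private regions stood at the background. The class 3 octamer TGATTTAT showed the opposite order, with 3.74% in Dfd+Hth private regions (231 of 6176, 3.28 to 4.24) and 10.3% in Ubx+Hth private regions (97 of 938, 8.47 to 12.5). Shared regions held it in 3.82% on the Dfd+Hth side (141 of 3689) and 5.17% on the Ubx+Hth side (4.50 to 5.91). The tiles held it in 2.16%. Across the 5 arms, class 2 ranged between 6.78 and 8.72% in Dfd+Hth private and between 0.543 and 2.34% in Ubx+Hth private regions. Class 3 ranged between 2.75 and 4.74% in Dfd+Hth private and between 6.76 and 13.1% in Ubx+Hth private regions. Neither pair of ranges overlapped.

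The class 1 octamer TGATTGAT sided with Dfd+Hth, at 4.32% of Dfd+Hth private regions (3.83 to 4.86), 1.60% of Ubx+Hth private regions (0.898 to 2.62), 2.01% of shared regions and 1.28% of tiles. Any of the 3 octamers occurred in 14.7% of Dfd+Hth private regions, 12.9% of Ubx+Hth private regions and 9.24% of shared regions. The private sets thus held octamers about equally often but of different classes. When all 16 fillings of the middle bases of TGATNNAT were counted, TA (class 2) and TG (class 1) gave the highest shares in Dfd+Hth private regions. In Ubx+Hth private regions TT (class 3) gave the highest, and AA (TGATAAAT) was next with 3.52%, against 3.58% in Dfd+Hth private regions. Of the 16, class 3 was the octamer with a clearly higher share in Ubx+Hth private than in Dfd+Hth private regions, with intervals that did not meet.

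The monomer sites also divided the private sets, type 1 by more percentage points than any octamer class. Type 1 sites had the TAAT core (TTAATTA or TTAATGA or CTAATTA or CTAATGA) and type 2 sites the TTAT core (TTTATTA or TTTATTG or TTTATGA or TTTATGG). Neither octamer class contains a whole monomer site, although an octamer can share letters with a monomer next to it. Type 1 sites occurred in 40.8% of Dfd+Hth private regions (2522 of 6176, 39.6 to 42.1), 6.93% of Ubx+Hth private regions (65 of 938, 5.39 to 8.75), 21.7% of shared regions and 16.2% of genome tiles. Ubx+Hth private regions were therefore below the genome tiles and below their own windows 1000 bp away, which held type 1 sites in 16.7%. Type 2 sites occurred in 28.3% of Dfd+Hth private regions (27.2 to 29.4), 38.4% of Ubx+Hth private regions (35.3 to 41.6), 27.8% of shared regions and 25.3% of tiles. Shared regions taken from the Ubx+Hth side held type 1 sites in 16.8% and type 2 sites in 31.2%. A region with type 2 and no type 1 sites was found in 15.7% of Dfd+Hth private, 35.4% of Ubx+Hth private and 21.0% of shared regions. The reverse, type 1 and no type 2, was found in 28.3%, 3.94% and 14.9%.

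**Figure D2:**
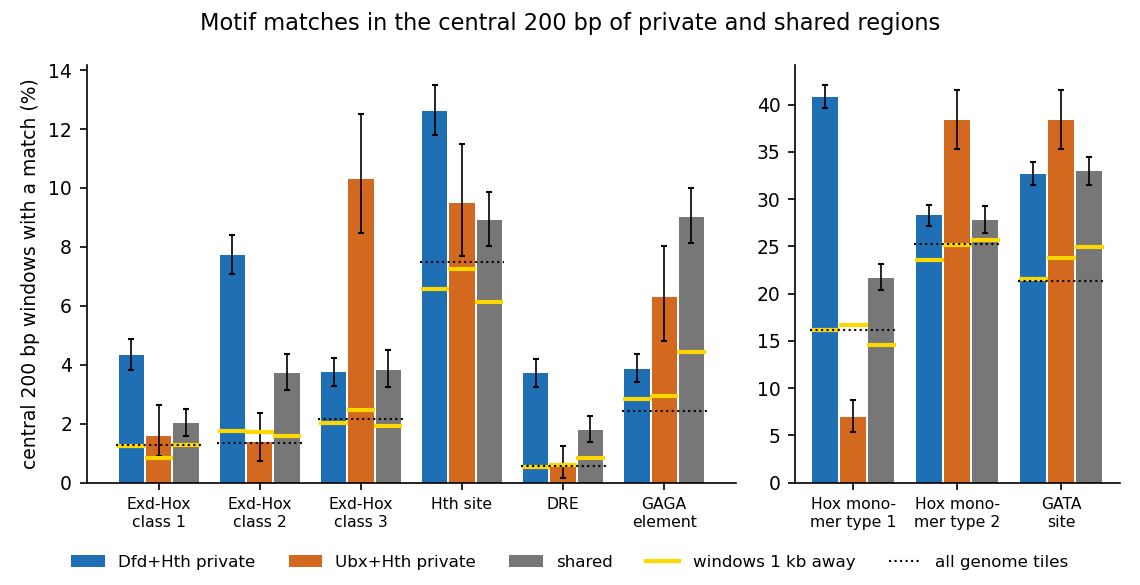
Share of central 200 bp windows with a match (vertical axes, in percent) for Exd-Hox octamers of class 1, 2 and 3, the Hth site, the DRE and the GAGA element on the left, and for Hox monomer types 1 and 2 and the GATA site on the right. Bars stand for Dfd+Hth private, Ubx+Hth private and shared regions with 95% exact intervals, gold lines for windows 1000 bp away and dotted lines for all genome tiles. Class 2 (7.72% against 1.39%) and monomer type 1 (40.8% against 6.93%) were higher in Dfd+Hth private than in Ubx+Hth private regions, and class 3 (3.74% against 10.3%) and monomer type 2 (28.3% against 38.4%) were lower.

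Most of these differences were sharpest at the centres of the regions. In 100 bp bins, class 2 was found in 3.72 and 3.71% of Dfd+Hth private regions in the bins on either side of the centre, and in 0.842 and 0.891% in the outermost bins 900 to 1000 bp away. The same central bins of Ubx+Hth private regions held class 2 in 0.640 and 0.746%, with no peak there. For class 3 the central bins gave 1.91 and 1.70% in Dfd+Hth private regions and 4.90 and 5.22% in Ubx+Hth private regions, which fell to 1.17 and 1.28% in the outermost bins of the Ubx+Hth private regions. Type 1 monomers peaked at 23.1 and 22.9% at the centre of Dfd+Hth private regions, with 8.31 and 7.87% at the edges. In Ubx+Hth private regions they formed a dip of 3.30 and 3.41% between edges of 8.85 and 7.68%. Type 2 monomers showed no central peak in Dfd+Hth private regions, where the fuller central bin held 15.4% and a bin beside it 16.0%, and had one in Ubx+Hth private regions, where the fuller central bin held 22.0% and the bins beside the centre pair 16.0 and 17.2%.

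**Figure D3:**
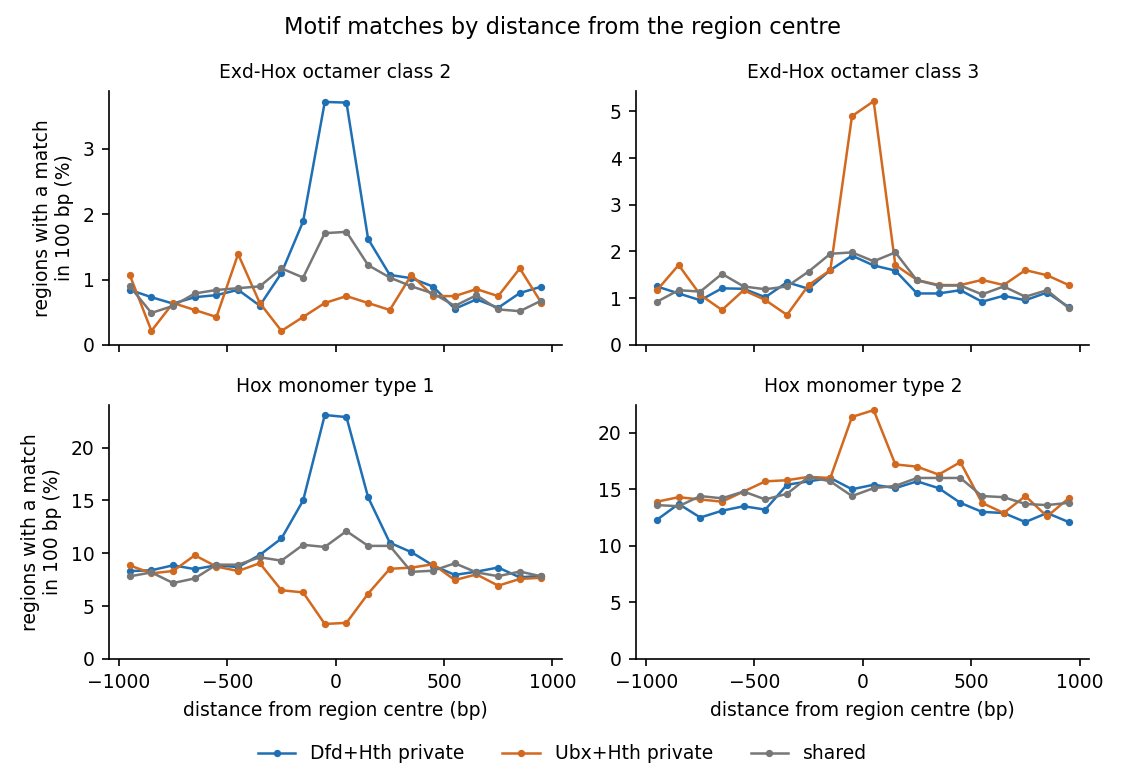
Share of regions with a match in each 100 bp bin (vertical axes, in percent) against the distance from the region centre in bp (horizontal axes), for octamer classes 2 and 3 and monomer types 1 and 2. Lines stand for Dfd+Hth private, Ubx+Hth private and shared regions. Type 1 monomers peaked at 23.1% in Dfd+Hth private regions and dipped to 3.30% in Ubx+Hth private regions.

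A count of all 32896 8-mers, with both strands merged, gave the same division without use of the motif list. The 8-mer with the largest excess in Dfd+Hth private regions was ATTAATTA, found in 10.8% of them, 0.533% of Ubx+Hth private regions and 4.36% of shared regions. The next were TAATTAAA (9.50% against 1.92%), ATTAATTG (7.35% against 0.640%), ATAATTAA (7.64% against 1.17%) and AATTAAAA (10.1% against 3.73%), all of which hold the letters AATTA or TTAAT. TGATTAAT ranked at position 6 and TGATTGAT at position 64. In the other direction, ATAAATAA led with 5.88% of Dfd+Hth private, 14.9% of Ubx+Hth private and 6.37% of shared regions. AATTTATG followed (3.06% against 10.2%), then the class 3 octamer TGATTTAT (3.74% against 10.3%), CATAAATA (2.70% against 8.74%) and CATAAATC (2.22% against 7.78%). Each of these holds ATAAAT on one of its strands.

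Seen from the regions of each line, the private share moved with the number of monomers in the central window. Among Dfd+Hth regions it was 55.9% with no type 1 site (3654 of 6542), 72.4% with 1 (1343 of 1856), 76.4% with 2 (726 of 950) and 87.6% with 3 or more (453 of 517). Type 2 sites made little difference to Dfd+Hth regions, with private shares of 62.5, 63.1, 63.6 and 56.8% for 0, 1, 2 and 3 or more sites. Among Ubx+Hth regions the pattern was turned round. The private share was 21.0% with no type 1 site and 8.66, 10.2 and 6.25% with 1, 2 and 3 or more, whereas it was 17.5, 21.1, 26.8 and 39.6% for 0, 1, 2 and 3 or more type 2 sites. The last value rested on 19 of 48 regions, with an interval of 25.8 to 54.7. Among Dfd+Hth regions with 1 class 2 octamer, 77.6% were private (451 of 581), against 61.6% of those with none. Of Ubx+Hth regions with 1 class 3 octamer, 32.0% were private (93 of 291, 26.6 to 37.7), against 18.3% of those with none.

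**Figure D4:**
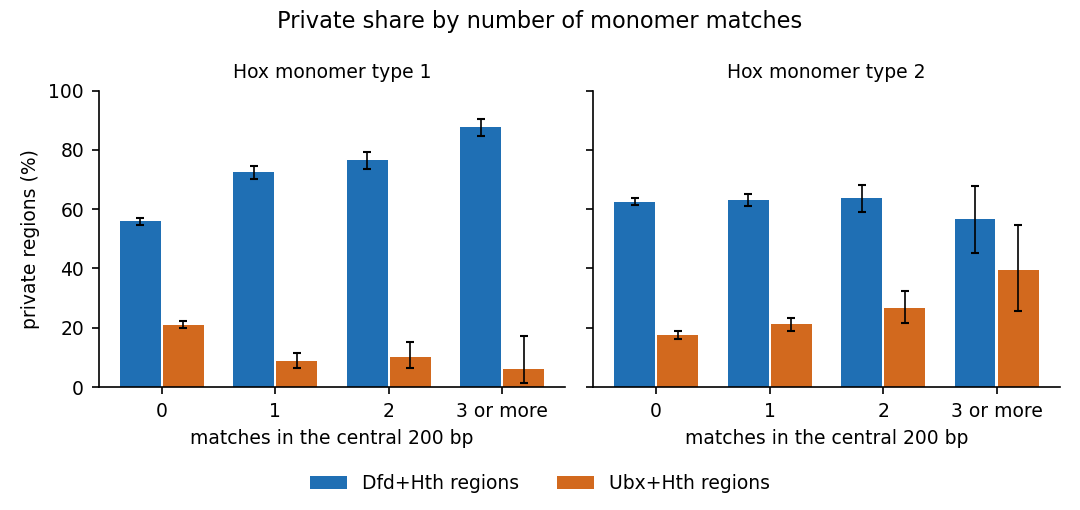
Share of regions that were private (vertical axes, in percent, with 95% exact intervals) against the number of monomer matches in the central 200 bp (horizontal axes), for type 1 on the left and type 2 on the right, in the Dfd+Hth and the Ubx+Hth line. The private share of Dfd+Hth regions was 55.9% with no type 1 site and 87.6% with 3 or more, and that of Ubx+Hth regions was 17.5% with no type 2 site and 39.6% with 3 or more.

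Sites of other factors were counted in the same windows. The Hth site TGACAG, the core bound by Hth and its vertebrate relatives of the Meis family, was in 12.6% of Dfd+Hth private regions (11.8 to 13.5), 9.49% of Ubx+Hth private regions (7.69 to 11.5), 8.92% of shared regions and 7.49% of tiles. GATA sites (TGATAA or AGATAA), bound by hemocyte factors such as Serpent, were above the 21.3% of tiles in each set, with 32.7% in Dfd+Hth private, 38.4% in Ubx+Hth private and 33.0% in shared regions. The GAGA element (GAGAGAG), bound by the chromatin factor Trl, was in 3.87% of Dfd+Hth private, 6.29% of Ubx+Hth private and 9.03% of shared regions, against 2.43% of tiles. AP-1 sites (TGACTCA, which is read as TGAGTCA on the other strand) were in 3.38%, 2.88% and 3.63%, against 1.59% of tiles. The E-box CAGCTG was in 10.8%, 10.7% and 10.1%, against 8.35% of tiles. The DNA replication-related element DRE (TATCGATA), a sequence of many housekeeping promoters, was in 3.71% of Dfd+Hth private regions, 0.533% of Ubx+Hth private regions, 1.79% of shared regions and 0.558% of tiles.

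The DRE matches lay near transcript starts, where the Hox sites of Dfd+Hth private regions were fewer. Dfd+Hth private regions within 500 bp of a start held the DRE in 208 of 2310 and those farther away in 21 of 3866 (0.543%). Class 2 was in 3.29% of the near and 10.4% of the distant Dfd+Hth private regions, and type 1 monomers were in 24.3% and 50.7%. Among Ubx+Hth private regions the place made less difference, with class 3 in 13.1% of the near (9.06 to 18.0) and 9.42% of the distant regions (7.36 to 11.8), and type 2 monomers with intervals of 29.0 to 41.5% and 35.9 to 43.2%. The strict private regions had the same division in larger measure. There, class 2 was in 11.1% of 2967 Dfd+Hth regions and 0.662% of 302 Ubx+Hth regions (0.0803 to 2.37), and class 3 was in 4.65% and 14.6%. Type 1 monomers were in 50.2% of strict Dfd+Hth and 5.96% of strict Ubx+Hth private regions, and type 2 monomers in 29.1% and 47.7%.

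The lines without Hth show how many of the private regions the same Hox protein also occupied by itself. Of the Dfd+Hth private regions, 28.2% (1744) were bound with Hth and not by Dfd alone, and 71.8% (4432) also by Dfd alone. Of the Ubx+Hth private regions, 65.9% (618) were bound with Hth and not by Ubx alone, and 34.1% (320) also by Ubx alone. The list of Dfd alone (10374 regions) was longer than that of Ubx alone (5278), so the difference between the lines cannot be read as one in dependence on Hth. Regions bound only with Hth were more often private in both lines. Of the Dfd+Hth regions bound with Hth and not without, 81.7% were private (1744 of 2134, 80.0 to 83.3), against 57.3% of those bound also without Hth (4432 of 7731). Of the Ubx+Hth regions, 38.6% (618 of 1600, 36.2 to 41.1) and 9.74% (320 of 3285) were private in these groups. Copper dose and time differed between the Dfd+Hth and Dfd lines and were the same in the Ubx+Hth and Ubx lines.

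The octamers were concentrated in the private regions bound only with Hth. Of the Dfd+Hth private regions bound with Hth and not without, 16.6% held class 2 (14.9 to 18.5), against 4.22% of those also bound by Dfd alone (3.65 to 4.85). The same groups held class 1 in 10.9% and 1.74%, class 3 in 7.40% and 2.30%, and the Hth site in 21.3% and 9.23%. Type 1 monomers differed less, at 46.2% and 38.7%. Of the Ubx+Hth private regions bound with Hth and not without, 14.2% held class 3 (11.6 to 17.2), against 2.81% of those also bound by Ubx alone (1.29 to 5.27), and the Hth site was in 11.7% and 5.31%. Class 2 was low in both groups of Ubx+Hth private regions, at 1.29% and 1.56%. Type 2 monomers were in 44.3% of the Ubx+Hth private regions bound only with Hth and 26.9% of the others.

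Regions of tagged Hth alone overlapped 40.9% of Dfd+Hth private regions (39.6 to 42.1), 70.0% of Ubx+Hth private regions (67.0 to 73.0) and 92.4% of shared regions. Hth bound without a Hox transgene was thus found at most Ubx+Hth private regions and at a minority of Dfd+Hth private ones. Among private regions bound with Hth and not by the Hox protein alone, an Hth region was present in 19.6% for Dfd+Hth and 57.4% for Ubx+Hth. Where the Hox protein alone also bound, it was present in 49.3% for Dfd+Hth and 94.4% for Ubx+Hth. The Hth and Ubx+Hth lines were induced alike (1 mM, 18 h), and the Dfd+Hth line was not.

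The lines with Gcm added to the same Hox protein and Hth are separate cells that the choice of private regions did not use. Dfd+Hth+Gcm overlapped 68.3% of Dfd+Hth private and 8.74% of Ubx+Hth private regions. Ubx+Hth+Gcm overlapped 35.3% of Dfd+Hth private and 67.8% of Ubx+Hth private regions. Of the Dfd+Hth private regions, 39.8% were met by Dfd+Hth+Gcm and not Ubx+Hth+Gcm, 28.5% by both, 6.80% by Ubx+Hth+Gcm only and 24.9% by neither. Of the Ubx+Hth private regions, 0.533% were met by Dfd+Hth+Gcm only, 8.21% by both, 59.6% by Ubx+Hth+Gcm only and 31.7% by neither. In the lines with Gcm, each private set again met the line of its own Hox protein more often, with the wider gap on the Ubx side. For the strict private regions, 56.8% of the Dfd+Hth and 0.662% of the Ubx+Hth regions were met by Dfd+Hth+Gcm only. Ubx+Hth+Gcm only met 0.404% of the strict Dfd+Hth and 76.5% of the strict Ubx+Hth regions.

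Abd-B, a Hox protein of the posterior abdomen, overlapped both private sets, with 65.5% of Dfd+Hth private, 75.8% of Ubx+Hth private and 95.5% of shared regions. Abd-B+Hth overlapped 66.5%, 68.8% and 96.1% in the same order. Regions of Dfd alone met 71.8% of Dfd+Hth private and 17.5% of Ubx+Hth private regions, and those of Ubx alone met 21.0% and 34.1%. Regions found in just 1 line were rare. None of the other 10 lines met 4.06% of Dfd+Hth private regions (251), 3.73% of Ubx+Hth private regions (35) and 0.0542% of shared regions (2). The median number of other lines was 5 for Dfd+Hth private, 4 for Ubx+Hth private and 9 for shared regions, and all 10 met 6.14%, 1.07% and 43.8%.

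**Figure D5:**
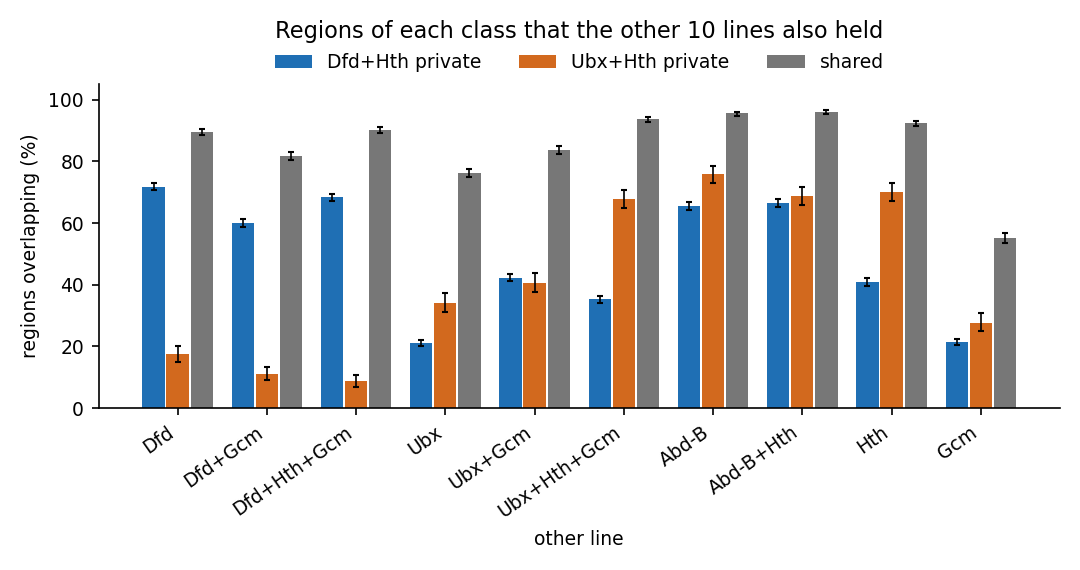
Share of Dfd+Hth private, Ubx+Hth private and shared regions (in percent, with 95% exact intervals) that overlapped a region of each of the other 10 lines. Dfd+Hth+Gcm met 68.3% of Dfd+Hth private and 8.74% of Ubx+Hth private regions, and Hth alone met 40.9% and 70.0%.

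The genes near private regions were counted over all 13945 protein-coding genes, a gene counting where a region lay in its body or within 2000 bp. A Dfd+Hth private region was near 6341 genes (45.5%), a Ubx+Hth private region near 934 (6.70%) and a shared region near 3622 (26.0%). Long genes collect more regions, so the counts below are descriptions of places. Of the 8 Hox genes of the Antennapedia and bithorax complexes (median length 30.6 kb, against 2.17 kb for all genes), 5 had a Dfd+Hth private region, 4 a Ubx+Hth private region and 5 a shared one.

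Within the Hox complexes, Dfd and Antp had private regions of both lines, and the other Hox genes of 1 line or neither. At Scr, which specifies the labial segment and prothorax, Dfd+Hth had 2 private regions in an intron and Ubx+Hth none. The wider one (chr3R:6829130-6831377, 2248 bp) held 2 class 2 and 2 class 3 octamers, 5 type 1 monomers and 3 Hth sites, and of the other 10 lines only Dfd+Hth+Gcm and Ubx+Hth+Gcm had a region there. Its neighbour (chr3R:6831751-6833653, 1903 bp) held 1 class 1 and 1 class 2 octamer and 6 type 1 monomers. At Dfd, 3 Dfd+Hth private regions lay in introns, and the widest of them (chr3R:6799940-6800964, 1025 bp) held the class 2 octamer printed above and 4 type 1 monomers. It was met by Hth alone and by Dfd+Hth+Gcm, but not by Dfd alone. A Ubx+Hth private region of 369 bp overlapped the edge of Dfd at its lower coordinates, with its centre in intergenic sequence (chr3R:6791497-6791865). This region held none of the octamers or monomers and was met by Dfd, Ubx and Hth alone, among other lines. Antp, which specifies thoracic segments, had 5 Dfd+Hth private, 1 Ubx+Hth private and 3 shared regions. Ubx and abd-A each had 0 Dfd+Hth private regions and 1 Ubx+Hth private region, both in introns, listed at q 1e-2 but not at q 1e-10, and with 1 type 2 monomer each (chr3R:16661796-16662168 and chr3R:16819530-16819855). Regions over exons carried by the plasmids had been removed by the authors, so coding parts of Dfd, Ubx and hth could not be compared.

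Of the 7 genes of the TALE homeobox family, which includes the cofactors, 5 had a Dfd+Hth private region and 1 a Ubx+Hth private region. The shares of all genes were 45.5 and 6.70%, and the TALE genes were longer (median 12.2 kb against 2.17 kb). At exd, a Dfd+Hth private region of 1704 bp (chrX:15993384-15995087) held the class 2 octamer printed above and no monomer of either type. At hth, 3 Dfd+Hth private, 1 Ubx+Hth private and 5 shared regions all lay in introns. The Dfd+Hth private region chr3R:10566092-10566778 held 1 class 2 octamer and 6 type 1 monomers. The Ubx+Hth private region chr3R:10622198-10622678 held 1 class 3 octamer, 3 type 2 monomers and no type 1 monomer. Among 36 homeobox genes outside the Hox complexes, 14 had a Dfd+Hth private region and 2 a Ubx+Hth private region, which were shares near those of all genes. They included inv, a paralogue of engrailed, with 5 Dfd+Hth private regions, and lbl, a ladybird gene of muscle and heart precursors, with 5.

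Genes used by Hox proteins in the trunk, wing and haltere were met by both private sets. Of 15 such genes, 9 had a Dfd+Hth private, 6 a Ubx+Hth private and 11 a shared region. The shares of all genes were 45.5, 6.70 and 26.0%. The 15 genes were long, with a median of 22.7 kb against 2.17 kb for all genes, and long genes collect more regions. The homeobox gene ct had 2 Dfd+Hth private, 1 Ubx+Hth private and 5 shared regions, and a region of each private set there held a class 3 octamer. The wing selector gene vg had 3 Dfd+Hth private and 0 Ubx+Hth private regions, and the Wnt gene wg had 0 and 1. Of 4 known Dfd target genes, Dfd itself had private regions, Ser had 1 shared region, and the cell death gene rpr and Dll, a gene of appendage outgrowth, had none. At the elbow and no ocelli locus the regions in or within 2000 bp of elB and noc were mainly common to both lines. The sequence between the genes was not. The window chr2L:14400001-14500000, which covers most of it, held 16 Dfd+Hth private, 2 Ubx+Hth private and 7 shared regions. noc had 1 shared and 1 Ubx+Hth private region. elB had 5 shared regions, up to 5646 bp wide (chr2L:14402104-14407749, with 3 class 1, 2 class 2 and 1 class 3 octamers), and no private one.

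Regions of both lines lay at some hemocyte genes and at none of gcm, NimC1 and He. The shares of all genes to set beside the counts are 45.5, 6.70 and 26.0%. The listed genes were longer than the 2.17 kb median of all genes, with medians of 17.9 kb (transcription factors) and 7.90 kb (plasmatocyte genes). Long genes collect more regions. Of 5 hemocyte transcription factor genes, 4 had a Dfd+Hth private region, 1 a Ubx+Hth private region and 4 a shared one. The FOG gene ush, a partner of GATA factors in blood cells, had 4 Dfd+Hth private, 1 Ubx+Hth private and 16 shared regions. The GATA gene srp had 1, 0 and 8, and lz, the Runx gene of crystal cells, had 3, 0 and 1. Of 10 plasmatocyte receptor and matrix genes, 5 had a Dfd+Hth private, 5 a Ubx+Hth private and 4 a shared region. Hml, a clotting protein gene, had 0 and 1, crq, a scavenger receptor gene, had 2 and 0, and Pxn, which encodes the matrix enzyme peroxidasin, had 3 and 1. The ecdysone response genes, which are long (median 60.7 kb), had Dfd+Hth private regions at 10 of 11 and Ubx+Hth private regions at 4 of 11, with Eip75B, a nuclear receptor gene, at 9 Dfd+Hth private, 2 Ubx+Hth private and 15 shared regions. Of 8 neural regulator genes, 3 and 1 had a private region, and of 10 muscle structural genes, 2 and 0.

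Translation genes, which are short (median 1.69 kb) and have strong promoters, had a Dfd+Hth private region at 9 of 16 and a Ubx+Hth private region at 1 of 16, near the 45.5% and 6.70% of all genes. The gene with the Ubx+Hth private region was RpS3, which encodes a component of the small ribosomal subunit, and it had 0 Dfd+Hth private regions and 1 Ubx+Hth private region, with the class 3 octamer printed above. RpS12 had 3 and RpL3 and RpS2 had 2 Dfd+Hth private regions each.

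The 10 genes with the most Dfd+Hth private regions were all far longer than the median gene. Svil, which encodes the actin-binding protein supervillin, had 18 Dfd+Hth private, 0 Ubx+Hth private and 12 shared regions. Hs6st, a heparan sulfate sulfotransferase gene, had 13, 0 and 3, and kirre, an adhesion molecule gene of myoblast fusion, had 13, 0 and 7. klar had 13, 1 and 5, the Wnt receptor gene fz2 had 12, 0 and 3, osp had 12, 1 and 3, and pyd, the gene of the junction protein ZO-1, had 12, 2 and 6. Dys, the dystrophin gene, had 10, 1 and 3, and Lmpt, a LIM domain protein gene, had 10, 1 and 1. Ubx+Hth private regions were most numerous at cv-c, with 9 Dfd+Hth private, 7 Ubx+Hth private and 4 shared regions, and at mtgo with 6, 7 and 7. The TSC-22 family gene bun stood high in each count, with 12, 6 and 21.

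Of all protein-coding genes, 342 had a Ubx+Hth private and no Dfd+Hth private region. Among the genes with the most Ubx+Hth private regions, 5 besides mtgo had more of them than Dfd+Hth private ones. foxo, the transcription factor gene of insulin signalling, had 1 Dfd+Hth private, 6 Ubx+Hth private and 6 shared regions. tara had 1, 5 and 12, Mob2, which encodes a kinase partner, had 3, 5 and 6, CAP, a cytoskeletal adaptor gene, had 3, 4 and 2, and CCAP-R, a neuropeptide receptor gene, had 1, 4 and 3. The order was the other way at pigs, with 8, 5 and 3, and at Btk, a tyrosine kinase gene, with 6, 4 and 7. Shared regions were most numerous at bun, followed by pnt, the ETS factor gene of receptor tyrosine kinase signalling, with 7, 0 and 20. The Notch coactivator gene mam had 8, 0 and 14, Pdp1 had 3, 3 and 12, Raf had 3, 1 and 11, and the cell cycle regulator gene E2f1 had 4, 1 and 10.

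Private regions of each line also gathered in stretches of the genome. Among 1342 windows of 100000 bp, the mean was 4.60 Dfd+Hth private and 0.699 Ubx+Hth private regions, and 203 and 795 windows had none. The fullest for Dfd+Hth held 20 private regions and 2 of Ubx+Hth, at chr3L:16800001-16900000, which includes Lmpt and sina, and likewise 20 and 2 at chr3R:10000001-10100000, which includes Mical. The fullest for Ubx+Hth held 7. They were chr3L:11200001-11300000 with 16 Dfd+Hth private regions besides, chr3R:14000001-14100000 over foxo with 11, and chr3R:14400001-14500000 over cv-c with 8. In chr2L:3700001-3800000, near bowl, a less dense window singled out after its values were seen, the order was turned round, with 1 Dfd+Hth private, 5 Ubx+Hth private and 0 shared regions. The order was also turned round in chr2L:21900001-22000000, likewise picked after its values were seen, with 2, 5 and 2.

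The widest strict private regions were larger for Dfd+Hth. The widest of all spanned 2878 bp in an intron of Bicra, a gene of a chromatin remodelling complex (chr3R:29083373-29086250), and held 2 class 3 octamers, 10 type 1 and 8 type 2 monomers. It was followed by a region of 2775 bp over Drip, an aquaporin gene (chr2R:11426057-11428831), with 3 class 2 and 2 class 3 octamers, and by an intergenic one of 2566 bp (chr2L:1423653-1426218), with 17 type 1 and 4 type 2 monomers and no octamer. The next was the intergenic region near CG3473 (chr2L:14565272-14567778, 2507 bp), with 4 class 2 octamers, 1 class 1 octamer and 10 type 1 monomers. None of Dfd, Ubx, Hth and Abd-B alone had a region there, and the lines with Hth and Gcm both had one. The fifth spanned 2288 bp in tkv, a receptor gene of the Dpp signal (chr2L:5254265-5256552), with 2 class 3 octamers.

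For Ubx+Hth the widest strict private regions spanned 1519 bp in luna, a Krüppel-like factor gene (chr2R:11097828-11099346), and 1236 bp in heca (chr3R:30335751-30336986). The luna region held 2 class 3 octamers, 4 type 2 and 0 type 1 monomers, and the heca region 6 type 2 and 1 type 1 monomers. The region in cv-c (chr3R:14464968-14466128, 1161 bp) held 1 class 3 octamer, 4 type 2 and 3 type 1 monomers, and it was met by Hth alone and by both lines with Hth and Gcm, but not by Dfd or Ubx alone. An intergenic region of 1038 bp (chr3R:23391620-23392657) held 3 type 1 monomers and 1 type 2 monomer. The fifth, of 1034 bp, overlapped CG43210 and hemo with its centre in intergenic sequence (chr3R:18565064-18566097). It held 3 type 2 and 0 type 1 monomers, and 1 class 2 octamer, which none of the others of these 5 had. All 5 were also met by Hth alone, by Abd-B and by Abd-B+Hth.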

How the data were processed

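Anti-GFP ChIP-seq was done on 36 libraries of 12 stable Kc167 lines, 24 ChIP and 12 input. Per the methods, the authors aligned reads to dm6 without scaffolds with Bowtie 1.2.2, keeping reads with 1 match, called peaks per replicate over the input (MACS2 2.1.1.20160309, thresholds q 1e-2 and q 1e-10), removed regions over exons on the plasmids, and kept the joined regions present in both replicates. The deposited lists hold coordinates and a line name, with 0 in the score column throughout, so depth, peak height, summits and single replicates were not analysed here.

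Regions were compared by 1 bp overlap, and bedtools 2.31.1 gave the same private counts. Regions shared with the other line are described by the Dfd+Hth regions unless the Ubx+Hth side is named. Motifs were counted in the central 200 bp on both strands (Python 3.11.15, NumPy 2.4.6), which need not hold a summit. Exact intervals came from SciPy 1.17.1, and figures were drawn with matplotlib 3.10.9. Sequences came from RefSeq's Release 6 genome, whose arm lengths hold all regions used, which are those on 2L, 2R, 3L, 3R, 4 and X. Genes, transcript starts and exons came from the Ensembl annotation of the same assembly, limited to protein-coding and ncRNA genes. A gene was assigned a region in its body or within 2000 bp. The overlap counting was tested on simulated data, and the motif counting was not. The named places were the 5 widest strict private regions per line, the 10 genes with the most regions per class, the 5 densest windows, and the genes of 12 lists. The windows near bowl, at chr2L:21900001-22000000 and between elB and noc lay outside this rule and were added after their values were seen. Printed sequences came from strict private regions that were among the widest, not only the 5 widest, or lay at list genes. Members and lists were chosen with earlier results of these data known.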

Additional observations from a re-analysis of the deposited data

How the results depend on the processing

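No paired analysis was possible because both replicates had been merged into 1 list per line, and for the same reason leaving out a replicate could not be run. For 26 values, 110 alternatives were computed, of which 41 stayed within the counting interval and 69 did not. The private share of Dfd+Hth and Ubx+Hth regions was 73.1 and 26.6% with both lists at q 1e-10, 49.6 and 13.3% with the own list at q 1e-10 and the other at q 1e-2, 67.4 and 33.6% with 400 bp on each centre, and 46.0 and 39.4% with the Dfd+Hth list cut to its widest regions. Leaving out 1 arm gave 62.0 to 63.0 and 18.5 to 19.7%. Class 2 in Dfd+Hth private regions was 9.02% with classes at q 1e-10, 11.1% in the strict regions, 11.2% in 400 bp windows and 10.4% over 500 bp from a transcript start. In Ubx+Hth private regions it was 0.662% in the strict regions and 2.67% in 400 bp windows. Class 3 was 4.65% (strict), 7.11% (400 bp) and 5.04% (over 500 bp from a start) in Dfd+Hth private regions, and 14.6% (strict) and 14.0% (400 bp) in Ubx+Hth private regions. Overlap with Hth alone was 38.5% (q 1e-10), 36.2% (strict), 38.8% (at least 50% of the shorter region) and 38.3% (200 bp on the centre) in Dfd+Hth private regions, and 75.2% (strict) in Ubx+Hth private regions. Class 2 was higher in Dfd+Hth than in Ubx+Hth private regions in 4 of 4 alternatives, by 4.19 to 16.8 times. Class 3 was higher in Ubx+Hth private regions in 4 of 4, by 1.87 to 3.14 times, and Hth alone in 4 of 4. The alternatives on distance from a start and on 200 bp centres were chosen after seeing the data. The causes of these shifts were not tested. The lists hold no depth or height, so weak binding below the calling threshold cannot be told apart from no binding.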
